A study of Mus musculus with 28 samples.

Results

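The 5 Acsm genes of the mouse, Acsm1 to Acsm5, were followed in RNA of the kidney, and all 5 were found by symbol among the 56748 genes of the count table. The table covered 28 kidney libraries of male and female mice with 1 of 3 forms of aquaporin-3 (Aqp3), a channel of the collecting duct that passes water and glycerol. The forms were Q, which mimics the acetylated lysine, R, which mimics the deacetylated lysine, and the wild type (WT). The groups held 5 male Q, 5 male R, 5 male WT, 5 female Q, 3 female R and 5 female WT libraries. All mice were untreated and in standard housing, and decapsulated kidneys were taken between zeitgeber time 2 and 5 h, the early hours of light. The labels state neither the age of the mice nor how the alleles had been made. The title of the study names water reabsorption and urine concentration as its subject, so the genotype comparison was the one it was built for, and the comparison of the sexes follows from its groups.

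Acsm enzymes sit in the mitochondrial matrix and join fatty acids of medium chain length, and aromatic acids such as benzoate, to coenzyme A. The acyl-CoA they form can be shortened by beta-oxidation or, for aromatic acids, passed to glycine by glycine N-acyltransferase. In the kidney this chemistry is best known from the proximal tubule, which lives largely on fatty acid oxidation. Acsm1 is also known as a butyryl-CoA synthetase. Acsm3 was first described as the SA gene in work on hypertensive rats, and Acsm4 was described in the olfactory epithelium of rats.

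The genes lie together on mouse chromosome 7, in the order Acsm5, Acsm2, Acsm1, Acsm4 and Acsm3, all on the plus strand, with Thumpd1 between Acsm4 and Acsm3. Their 300-base windows from 250 bases before to 50 bases after a start site were taken from RefSeq on GRCm38.p6. They are shown for the 3 genes whose kidney RNA differed between the sexes and for Acsm5, whose RNA did not pass the test in any genotype. Capitals mark the matches to the searched motifs.
Acsm3, chr7:119760673-119760972, plus strand: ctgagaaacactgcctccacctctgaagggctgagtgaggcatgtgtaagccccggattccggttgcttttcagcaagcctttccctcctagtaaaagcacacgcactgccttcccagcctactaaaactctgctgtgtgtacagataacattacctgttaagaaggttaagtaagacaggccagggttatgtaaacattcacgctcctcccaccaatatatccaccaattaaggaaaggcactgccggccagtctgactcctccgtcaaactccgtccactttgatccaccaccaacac
Acsm2, chr7:119554090-119554389, plus strand: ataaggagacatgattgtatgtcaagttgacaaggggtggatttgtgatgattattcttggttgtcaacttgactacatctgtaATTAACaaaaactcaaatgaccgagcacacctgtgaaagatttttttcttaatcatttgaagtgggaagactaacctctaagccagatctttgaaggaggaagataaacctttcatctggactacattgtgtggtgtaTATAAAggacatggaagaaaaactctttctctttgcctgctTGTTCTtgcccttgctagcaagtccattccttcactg
Acsm1, chr7:119617562-119617861, plus strand: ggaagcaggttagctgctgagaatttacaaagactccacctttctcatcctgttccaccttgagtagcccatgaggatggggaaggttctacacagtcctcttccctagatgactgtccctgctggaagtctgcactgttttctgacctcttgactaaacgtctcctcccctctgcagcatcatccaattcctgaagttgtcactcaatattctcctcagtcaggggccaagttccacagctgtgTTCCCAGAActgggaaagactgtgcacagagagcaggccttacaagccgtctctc
Acsm5, chr7:119526015-119526314, plus strand: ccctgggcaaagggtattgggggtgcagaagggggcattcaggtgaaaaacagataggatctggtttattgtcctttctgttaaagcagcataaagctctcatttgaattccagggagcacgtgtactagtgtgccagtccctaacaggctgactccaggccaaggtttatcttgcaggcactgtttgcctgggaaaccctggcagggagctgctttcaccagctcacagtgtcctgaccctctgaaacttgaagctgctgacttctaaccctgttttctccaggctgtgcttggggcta

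Both strands of the windows were searched for 6 motifs, which may overlap each other. The first was the TATA box TATAAA. The next were the androgen receptor palindrome, AGAACA and TGTTCT with 3 bases between them, and its AGAACA element alone. The others were the HNF1 element GTTAAT, the HNF4 repeat of AGGTCA with 1 base between the copies, and the STAT5 site TTCNNNGAA. The window of Acsm2 held a TATA box whose first base was 28 bases upstream of the start site, and 13.6% of all 32851 mouse promoter windows held that motif. It held an androgen receptor element AGAACA on the minus strand, 13 bases downstream of the start, a motif found in 19% of all windows. It also held an HNF1 element on the minus strand, 166 bases upstream, a motif found in 7.1% of all windows. The window of Acsm1 held a STAT5 site that began 5 bases upstream of the start, a motif found in 8.3% of all windows. None of the 6 motifs was in the windows of Acsm3, Acsm5 or Acsm4, or in the window of a further start site of Acsm2. The androgen receptor palindrome was in 0.00913% and the HNF4 repeat in 0.0396% of all windows. A match describes these letters only, and a window without one says nothing of the factor.

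Total counts ran from 14825417 to 21403804 per library. Libraries were scaled by TMM, a factor that sets the bulk of genes level, and values are edgeR's CPM, counts relative to the scaled library total. In 3 libraries the table departed from the rest. Mitochondrially encoded genes held 7.74% of counts in male Q replicate 4 and 3.94% in female Q replicate 5; the 26 others had 9.56 to 12.1%. The library labelled female WT replicate 2 had 0.514 CPM of Xist, the RNA of the inactive X, where its 12 fellow female libraries had 214 to 434 CPM. The sum of 7 Y-linked genes was 4.16 CPM in that library, far from the 142 to 180 CPM of males. Aqp3 itself averaged 111 ± 7.77 CPM in male Q, 113 ± 8.30 CPM in male R and 121 ± 17 CPM in male WT kidneys (SD, n = 5 each). It averaged 111 ± 11.1 CPM in female Q (SD, n = 5), 124 ± 7.78 CPM in female R (SD, n = 3) and 118 ± 15.7 CPM in female WT kidneys (SD, n = 5). A change of 1 amino acid is not read by a count per gene, so these levels do not check the genotype labels. The labels number the replicates but do not state that each library is a separate animal, so p-values measure the spread between libraries, which may be technical in part.

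Acsm RNA of the kidney differed by sex, and no test called a difference by Aqp3 genotype. Male kidneys held 109 times the Acsm3 RNA, 3.82 times the Acsm2 RNA and 0.621 times the Acsm1 RNA of female kidneys, as means over the genotypes. Acsm5 averaged 112 ± 20.7 CPM in male (SD, n = 15) and 96.9 ± 13.2 CPM in female kidneys (SD, n = 13) and was not called, and Acsm4 was at the limit of detection. In each genotype 3 of the 4 tested Acsm genes passed an adjusted p of 0.05 in edgeR's quasi-likelihood test between the sexes. Among all 17573 tested genes the share that passed was 23.1% in Q, 14.1% in R and 16.5% in WT, and 40.2% for the mean over the genotypes. Without all 3 libraries that stand apart, the mean log2 fold changes over the genotypes were 6.79 for Acsm3, 1.96 for Acsm2 and -0.73 for Acsm1, against 6.77, 1.94 and -0.69 with them. In bulk RNA, fewer cells of a type and less RNA per cell cannot be told apart.

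**Figure D1:**
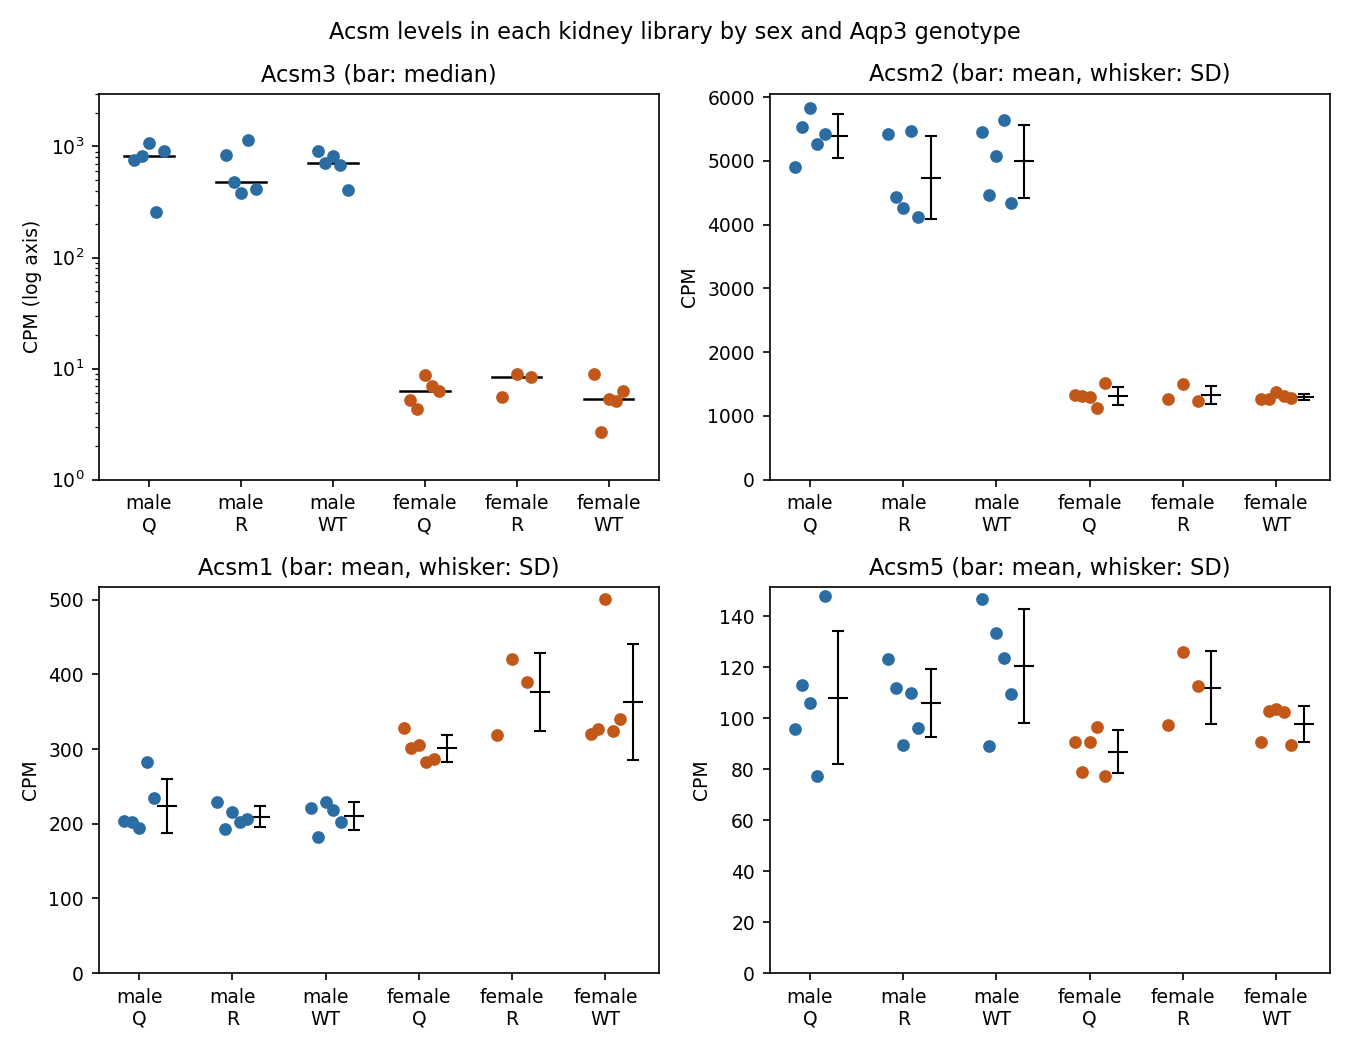
Each point is 1 kidney library, in CPM, for Acsm3 on a log axis and for Acsm2, Acsm1 and Acsm5 on linear axes from 0, by sex and Aqp3 genotype; bars are medians for Acsm3 and means with SD for the others. All male libraries stand above all female libraries for Acsm3 and Acsm2, the female libraries are mostly the higher ones for Acsm1, with 1 female WT library at 501 CPM, and the sexes overlap for Acsm5.

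Acsm3 was the member with the widest gap. The male Q libraries held 754, 821, 1081, 255 and 903 CPM, against 5.23, 4.33, 8.72, 6.93 and 6.26 CPM in the female Q libraries. The male R libraries held 843, 483, 381, 1143 and 411 CPM, against 5.56, 8.89 and 8.44 CPM in the female R libraries. The male WT libraries held 911, 715, 820, 675 and 406 CPM, against 8.93, 2.67, 5.32, 5.15 and 6.26 CPM in the female WT libraries. No male library came near a female one, and the lowest male library, male Q replicate 4, was among the libraries with few mitochondrial counts. The lowest female library, female WT replicate 2, was the one without Xist. Ranges of the sexes that did not overlap, with males higher, were found for 3.2% of all tested genes over the 28 libraries. Acsm3 averaged 707 ± 267 CPM in male kidneys (SD, n = 15) and 6.36 ± 1.95 CPM in female kidneys (SD, n = 13). The log2 fold change of male over female was 6.92 ± 0.44 in Q (SE; adjusted p = 5.88e-12), 6.42 ± 0.54 in R (SE; adjusted p = 2.51e-09) and 6.97 ± 0.44 in WT (SE; adjusted p = 8.11e-12). Without female WT replicate 2 it was 6.79 in WT. The mean over the genotypes was 6.77, a fold of 109 with a 95% interval of 71.3 to 167. That difference ranked 7 from the top among 17052 tested genes outside the sex chromosomes.

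Counts assigned to Acsm3 were found in every female library, at 57 to 185 counts per library and 1580 counts in 13 libraries. They were counted without strand, and Acsm3 shares exon bases with Eri2 on the opposite strand. Eri2 averaged 3.62 CPM in females against 6.36 CPM for Acsm3. With no multi-overlap option in the counting, a fragment on exons of both genes is assigned to neither. Among males Acsm3 was the most variable of the 4 tested members, with a coefficient of variation of 37.7% against 11.3% for Acsm2, 11.3% for Acsm1 and 18.6% for Acsm5, and the highest male library held 4.49 times the CPM of the lowest. Within the male groups the coefficient was 40.5% in Q, 50.7% in R and 27.1% in WT.

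Acsm2 had the highest mean per length of the members in both sexes, and its level parted the sexes completely. The male Q libraries held 4899, 5537, 5824, 5269 and 5422 CPM, against 1332, 1309, 1295, 1126 and 1514 CPM in the female Q libraries. The male R libraries held 5417, 4433, 4258, 5463 and 4125 CPM, against 1263, 1498 and 1231 CPM in the female R libraries. The male WT libraries held 5447, 4463, 5076, 5638 and 4336 CPM, against 1267, 1266, 1383, 1314 and 1283 CPM in the female WT libraries. The lowest male library held more than any female library by a wide margin. Acsm2 averaged 5040 ± 571 CPM in male kidneys (SD, n = 15) and 1314 ± 104 CPM in female kidneys (SD, n = 13). The log2 fold change was 2.04 ± 0.11 in Q (SE; adjusted p = 2.28e-15), 1.83 ± 0.13 in R (SE; adjusted p = 4.41e-12) and 1.94 ± 0.11 in WT (SE; adjusted p = 8.81e-15). By counts, without regard to length, Acsm2 ranked 14 among the 17573 tested genes in males, with 0.504% of all counts, and 51 in females, with 0.131%.

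Acsm1 went the other way, with less RNA in males. The male Q libraries held 204, 203, 194, 283 and 235 CPM, against 328, 301, 306, 283 and 287 CPM in the female Q libraries. The male R libraries held 229, 194, 216, 202 and 206 CPM, against 319, 421 and 390 CPM in the female R libraries. The male WT libraries held 221, 182, 229, 218 and 202 CPM, against 320, 326, 501, 325 and 341 CPM in the female WT libraries. The sexes did not overlap in R and WT. In Q they overlapped at 283 CPM, where male Q replicate 4, a library with few mitochondrial counts, was the highest male. Ranges that did not overlap, with males lower, were found for 12.1% of all tested genes in R and 7.27% in WT. Acsm1 averaged 215 ± 24.2 CPM in male kidneys (SD, n = 15) and 342 ± 61.3 CPM in female kidneys (SD, n = 13). The log2 fold change of male over female was -0.43 ± 0.12 in Q (SE; adjusted p = 0.00723), -0.85 ± 0.13 in R (SE; adjusted p = 2.18e-05) and -0.79 ± 0.12 in WT (SE; adjusted p = 8.34e-06). It was -0.52 in Q without male Q replicate 4, and -0.63 in WT without female WT replicate 3, the library at 501 CPM.

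Acsm5 had overlapping ranges in every genotype. It ran from 77.3 to 148 CPM with a median of 106 CPM in male Q, against 77.2 to 96.7 CPM with a median of 90.6 CPM in female Q. It ran from 89.4 to 123 CPM with a median of 110 CPM in male R, against 97.3 to 126 CPM with a median of 113 CPM in female R. It ran from 89.2 to 147 CPM with a median of 124 CPM in male WT, against 89.4 to 104 CPM with a median of 102 CPM in female WT. The highest libraries were male in Q and WT and female in R. The log2 fold change of male over female was 0.31 ± 0.13 in Q (SE; adjusted p = 0.0895), -0.08 ± 0.15 in R (SE; adjusted p = 0.799) and 0.30 ± 0.13 in WT (SE; adjusted p = 0.125). The mean over the genotypes was 0.18 with a 95% interval of 0.01 to 0.35 and an adjusted p of 0.0777. This value sits at the edge of the threshold: it was 0.21 with an adjusted p of 0.0205 without both libraries with few mitochondrial counts, and 0.19 with an adjusted p of 0.0489 in the Wald test of DESeq2.

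Acsm4 had 18 counts in all 28 libraries together, spread over 7 libraries, and did not pass the filter on low counts. It had 0 counts in male Q, which allows up to 0.0344 CPM over the group, 8 counts in male R and 3 in male WT. It had 1 count in female Q, 0 in female R, which allows up to 0.0518 CPM over the group, and 6 in female WT, all 6 in replicate 3. These limits cover counting error only, and no fold change is given. The library with the 6 Acsm4 counts was also the library with the highest Acsm1.

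**Figure D2:**
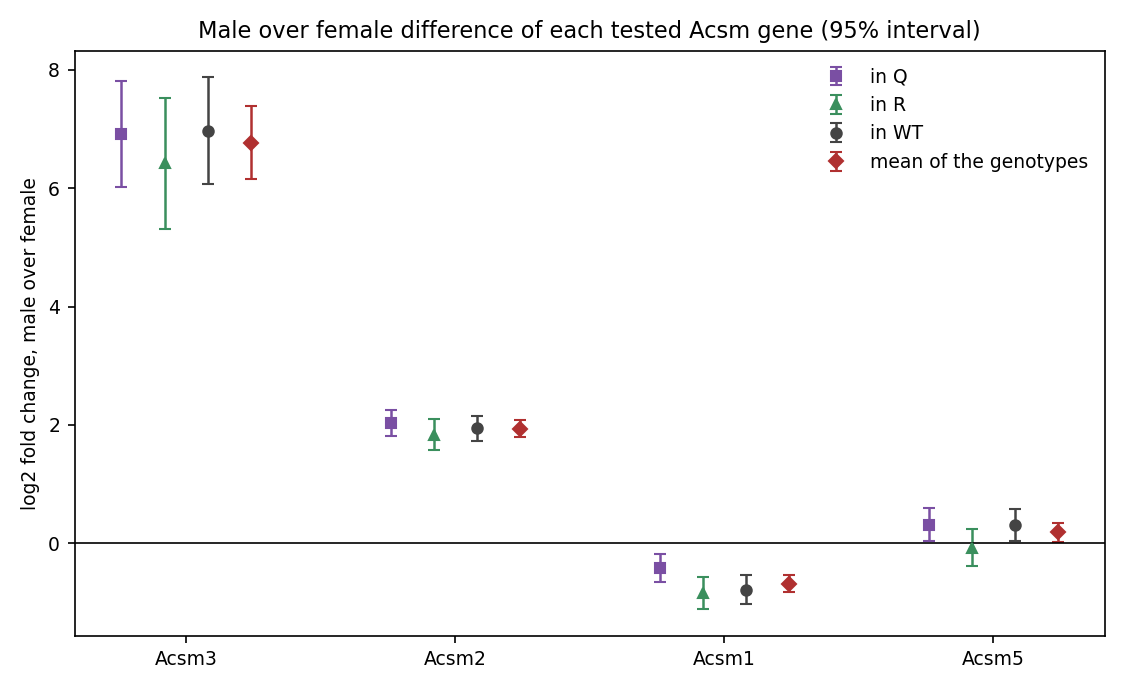
Log2 fold changes of male over female kidneys for the 4 tested Acsm genes in Q, R and WT and as the mean of the genotypes, with 95% intervals. Acsm3 lies between 6.42 and 6.97, Acsm2 between 1.83 and 2.04 and Acsm1 below 0 in each genotype, and the intervals of Acsm5 are close to or across 0.

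The make-up of the family's RNA differed between the sexes. The 5 genes together came to 6073 ± 795 CPM in male kidneys (SD, n = 15) and 1759 ± 142 CPM in female kidneys (SD, n = 13). Acsm2 made up 83.2 ± 2.77% of that sum in males and 74.7 ± 2.75% in females, so it led in both. Acsm3 made up 11.4 ± 3.25% in males and 0.363 ± 0.113% in females. Acsm1 made up 3.58 ± 0.573% in males and 19.4 ± 2.37% in females. Next after Acsm2 came Acsm3 in males and Acsm1 in females. These shares are of counts, in which a long transcript weighs more than a short one.

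Per kilobase of all annotated exons, the order in males was Acsm2 with 679 ± 77.0, Acsm3 with 143 ± 54.0, Acsm1 with 98.4 ± 11.1 and Acsm5 with 29.4 ± 5.46 CPM (SD, n = 15). Of these neighbours Acsm3 and Acsm1 overlapped, with libraries at 51.6 to 232 and at 83.3 to 130 CPM per kilobase. In females the order was Acsm2 with 177 ± 14, Acsm1 with 157 ± 28.1, Acsm5 with 25.5 ± 3.47 and Acsm3 with 1.29 ± 0.394 CPM (SD, n = 13). Acsm2 and Acsm1 overlapped there, with libraries at 152 to 204 and at 130 to 230 CPM per kilobase. The order depends on which transcript of Acsm2 is used, since those with a full coding region run from 2051 to 6738 bases. Per kilobase of each gene's shortest transcript with a full coding region, Acsm2 had 641 ± 50.6 and Acsm1 164 ± 29.4 CPM in females, and the libraries did not overlap. By that length Acsm3 had 276 ± 104 CPM in males. The exons of Acsm3 include the bases it shares with Eri2, where fragments may go uncounted. Its values per kilobase and its share of the family may therefore be too low. The coding sequences of 2 members matched at 61.1 to 66.8% of aligned bases, and the longest identical run between any 2 members was 15 to 26 bases.

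No tested Acsm gene passed the threshold between Aqp3 genotypes. In the 6 comparisons within a sex and the 3 over both sexes, 0 of 4 members were called by edgeR, and the share called among all tested genes was 0%. At an unadjusted p under 0.05 the members numbered 1 for Q over WT in females and 2 for Q over R in females, and 0 in the other 7 comparisons. DESeq2 called 0 members in all 9. Of all tested genes, 235 to 898 had an unadjusted p under 0.05, depending on the comparison, and DESeq2 called at most 3 genes.

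The intervals set how large a genotype difference the data leave room for. For Acsm2 the log2 fold change of Q over WT was 0.11 in males, with a 95% interval of -0.10 to 0.32, and 0.01 in females, with an interval of -0.20 to 0.23. R over WT gave Acsm2 -0.07 in male (-0.29 to 0.14) and 0.03 in female kidneys (-0.21 to 0.27). Acsm2 thus had narrow intervals in all 4. For Acsm3 the log2 fold change of Q over WT was 0.11 in male (-0.57 to 0.79) and 0.17 in female kidneys (-0.63 to 0.97). R over WT gave Acsm3 -0.11 in male (-0.79 to 0.57) and 0.44 in female kidneys (-0.46 to 1.34). Acsm3 had the widest intervals of the members, and single libraries turned the sign of 3 of these values, to -0.05 for Q over WT in males without male Q replicate 3, to 0.03 for R over WT in males without male R replicate 3 and to -0.01 for Q over WT in females without female WT replicate 2.

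Acsm1 had the lowest unadjusted p of the members. Its log2 fold change of Q over R in females was -0.32 ± 0.13 (SE; unadjusted p = 0.0209, adjusted p = 0.998). That of Q over WT in females was -0.27 ± 0.12 (SE; unadjusted p = 0.0276, adjusted p = 1), and -0.12 without female WT replicate 3. The 5 female Q libraries reached 328 CPM at most and overlapped with both other female groups. Acsm5 in females had a log2 fold change of Q over R of -0.37 ± 0.15 (SE; unadjusted p = 0.0227, adjusted p = 0.998). It ran from 77.2 to 96.7 CPM in the 5 female Q libraries and from 97.3 to 126 CPM in the 3 female R libraries, so these groups did not overlap, as was so, with Q lower, for 1.42% of all tested genes.

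The test of whether the Q or R effect differed between males and females, an interaction of sex and genotype, called 0 of 4 members in edgeR and 0 in DESeq2, and 0% of all tested genes. Among all genes 547 had an unadjusted p under 0.05 for Q and 495 for R. Only Acsm1 for Q was below that level among the members, with a difference of 0.36 in log2 fold change (95% interval 0.02 to 0.69; unadjusted p = 0.0373, adjusted p = 0.999). Without female WT replicate 3 the difference was 0.21. No member's sex difference is thus shown to depend on the genotype.

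**Figure D3:**
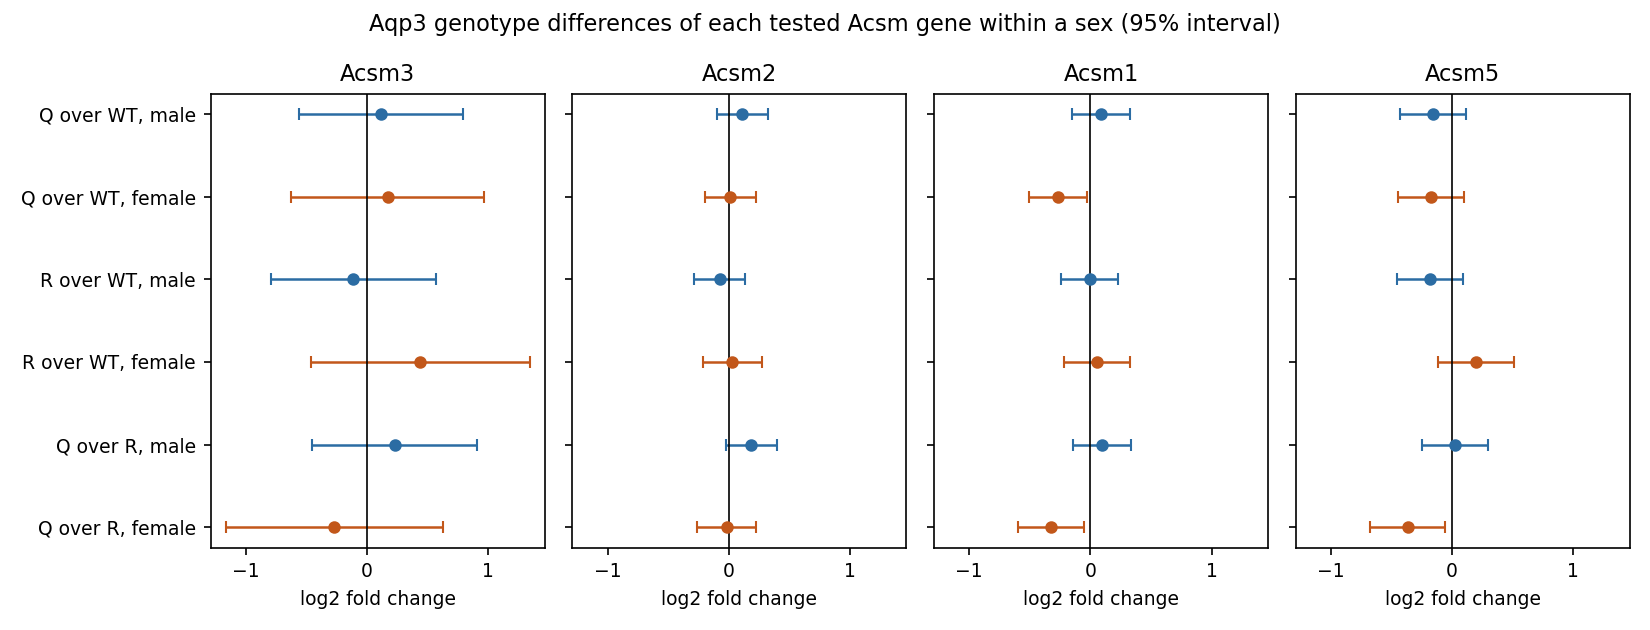
Log2 fold changes of the 4 tested Acsm genes between Aqp3 genotypes within each sex, with 95% intervals; blue is male and orange female. All intervals of Acsm3, the widest, and of Acsm2 cross 0, and those that do not cross 0 belong to Acsm1 and Acsm5 in females, with adjusted p near 1.

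Protein-coding genes in and next to the cluster had log2 fold changes of -0.68 to 1.41, smaller in size than those of Acsm3 and Acsm2, while Eri2 and Rexo5 were above Acsm1 and Acsm5 in size. Each value here is the log2 fold change of male over female as the mean over the genotypes. On the Acsm3 side, Eri2, an exonuclease gene on the opposite strand, was higher in males by 1.41 ± 0.12 (SE; adjusted p = 3.00e-11), with 9.66 ± 2.32 CPM in males and 3.62 ± 0.611 CPM in females. Rexo5, an RNA exonuclease, was higher by 0.93 ± 0.12 (SE; adjusted p = 3.17e-07), and Dcun1d3, a regulator of cullin neddylation, by 0.63 ± 0.07 (SE; adjusted p = 4.30e-08). Thumpd1, which lies between Acsm4 and Acsm3 and acts with a tRNA acetyltransferase, was higher by 0.17 ± 0.05 (SE; adjusted p = 0.0116). On the Acsm5 side the 3 nearest genes were lower in males. Pdilt, a protein of the testis, had a log2 fold change of -0.68 ± 0.11 (SE; adjusted p = 1.48e-05) at 2.98 CPM in males and 4.84 CPM in females. Umod, the uromodulin gene of the thick ascending limb, had -0.37 ± 0.08 (SE; adjusted p = 0.000231) and Gp2 -0.40 ± 0.12 (SE; adjusted p = 0.00748).

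Exons of Acsm3 and Eri2 share 1962 bases in the annotation used, which is 39.7% of the exon bases of Acsm3 and 27.4% of those of Eri2. The counting named no strand and no multi-overlap option. A fragment on exons of both genes is then assigned to neither, if the annotation used for counting has the same overlap. In males Eri2 averaged 9.66 CPM and Acsm3 707 CPM, while in females Eri2 averaged 3.62 CPM and Acsm3 6.36 CPM. The shared stretch then goes uncounted in both sexes, so the levels of Acsm3 and Eri2 are uncertain by it in males and females alike. A loss of the same share of Acsm3 in both sexes would leave the fold of 109 as it is. Whether that share differs between the sexes was not tested. Pdilt and Acsm5 share 104 bases in the same way.

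The span of Acsm1 also holds a pair of antisense transcripts, Gm19950 and Gm45792, which share 0 exon bases with it. Both were higher in males, opposite to Acsm1. Gm19950 averaged 206 ± 14.2 CPM in males and 103 ± 11.2 CPM in females, a log2 fold change of 1.01 ± 0.06 (SE; adjusted p = 6.06e-15). Gm45792 averaged 21.8 ± 3.78 CPM in males and 5.93 ± 1.64 CPM in females, a log2 fold change of 1.88 ± 0.13 (SE; adjusted p = 1.22e-12). For Gm19950 the log2 fold change was 0.98 in Q, 1.02 in R and 1.02 in WT, and male and female libraries did not overlap, at 181 to 221 and 87.4 to 125 CPM. Those of Gm45792 did not overlap either, at 15.1 to 27.3 CPM in males and 1.90 to 8.86 CPM in females. Such ranges, with males higher, were found for 3.2% of all tested genes. Without strand in the counting, part of the reads of both transcripts may be of either strand.

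**Figure D4:**
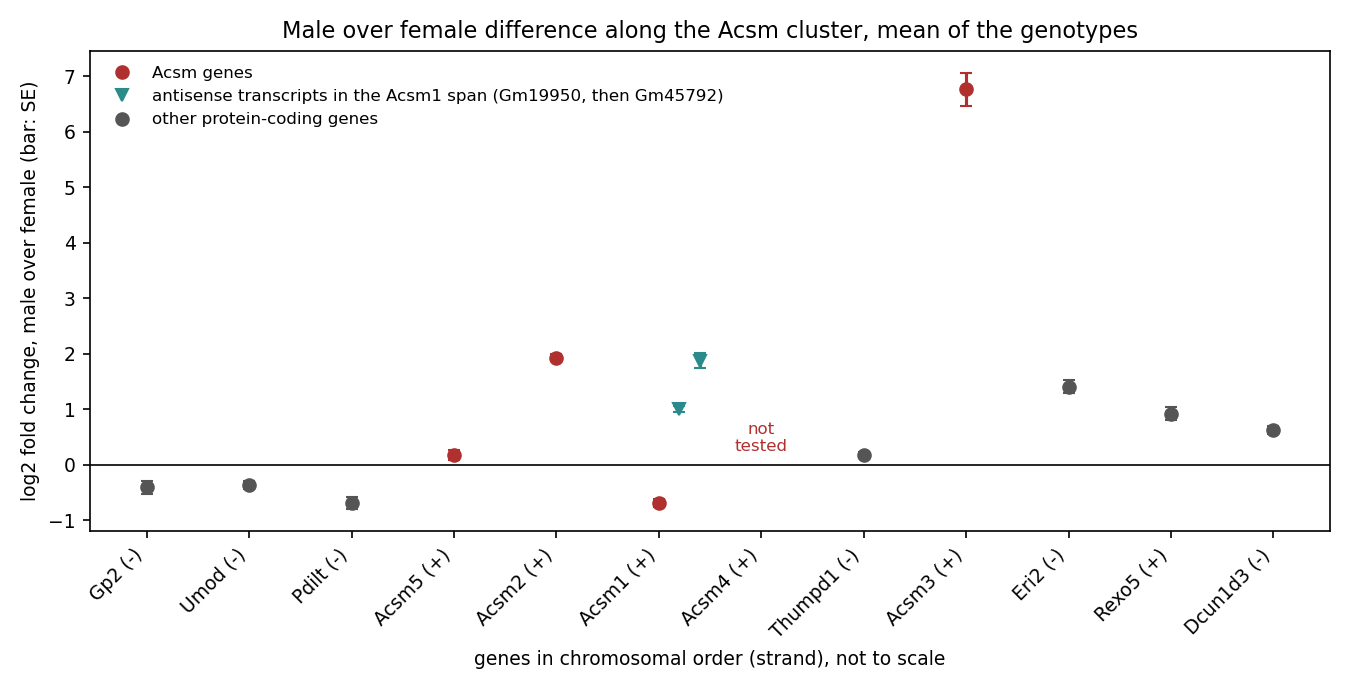
Log2 fold change of male over female, with SE, for the Acsm genes (red), their protein-coding neighbours (grey) and the antisense transcripts in the span of Acsm1 (triangles), in chromosomal order and not to scale. Values go from -0.69 for Acsm1 to 6.77 for Acsm3 within the cluster, while the neighbours lie between -0.68 and 1.41.

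Other acyl-CoA synthetases moved in both directions between the sexes. Of 19 listed genes 17 were tested, and 4 were higher and 8 lower in males, with 5 not called, for the mean over the genotypes. Their median log2 fold change was -0.39, against -0.04 over all tested genes. For the same mean 40.2% of all 17573 tested genes were called, 3324 higher and 3748 lower in males. That share stands beside the counts of this list and of the lists below. Acss2, the cytosolic acetyl-CoA synthetase, averaged 337 ± 26.9 CPM in males and 173 ± 15.2 CPM in females, a log2 fold change of 0.95 ± 0.05 (SE; adjusted p = 2.55e-15). Acss1, its mitochondrial counterpart, averaged 251 ± 29.5 CPM in males and 424 ± 35.7 CPM in females, a log2 fold change of -0.77 ± 0.05 (SE; adjusted p = 5.34e-13). Acsl1, which activates long-chain fatty acids, averaged 218 ± 36.1 CPM in males and 462 ± 69.8 CPM in females, a log2 fold change of -1.10 ± 0.09 (SE; adjusted p = 1.35e-11). Slc27a1, a fatty acid transport protein, had a log2 fold change of -0.74 ± 0.07 (SE; adjusted p = 9.61e-11). No gene of this list had a difference near that of Acsm3. By summed level the 19 listed genes came to 5180 ± 218 CPM in males and 4360 ± 399 CPM in females. Most of that sum was Slc27a2, named after its value was seen, at 3790 ± 183 CPM in males and 2760 ± 361 CPM in females. Its log2 fold change was 0.44 ± 0.06 (SE; adjusted p = 3.17e-07). The sum thus leaned to males, while more of the called genes were lower in males.

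Lists for later steps, glycine conjugation and medium-chain oxidation, were set beside the Acsm genes. All 3 tested genes of glycine conjugation were higher in each genotype. Glyat, the glycine N-acyltransferase, averaged 586 ± 107 CPM in males and 357 ± 25.4 CPM in females, a log2 fold change of 0.72 ± 0.08 (SE; adjusted p = 7.45e-09). Keg1, a relative of Glyat, averaged 1862 ± 325 CPM in males and 1152 ± 191 CPM in females, a log2 fold change of 0.70 ± 0.10 (SE; adjusted p = 6.58e-07). Gm4952 had 0.80 ± 0.13 (SE; adjusted p = 8.24e-06) at 4.79 CPM in males and 2.81 CPM in females. Glyatl3 had 7 counts in all and was not tested.

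Of 18 genes listed for medium-chain oxidation, 10 were higher and 3 lower in males for the mean over the genotypes. The other 5 were not called, and the median log2 fold change was 0.26. Within a genotype, 8 were higher and 3 lower in Q, and 7 were higher and 1 lower in R and in WT. Among all tested genes, 23.1% were called in Q, 14.1% in R and 16.5% in WT. The 10 include Mcat, with 0.24, an acyltransferase of mitochondrial fatty acid synthesis and not of oxidation, named after its value was seen. Crot, the carnitine octanoyltransferase of peroxisomes, averaged 598 ± 132 CPM in males and 229 ± 35.3 CPM in females, a log2 fold change of 1.38 ± 0.11 (SE; adjusted p = 2.28e-11). Acads, the short-chain acyl-CoA dehydrogenase, had 0.81 ± 0.08 (SE; adjusted p = 4.25e-10), Eci2, an enoyl-CoA isomerase, 0.58 ± 0.07 (SE; adjusted p = 2.13e-08) and Hadh, a hydroxyacyl-CoA dehydrogenase, 0.48 ± 0.05 (SE; adjusted p = 3.66e-09). Acadm, the medium-chain acyl-CoA dehydrogenase, chosen after its value was seen, had -0.17 ± 0.12 (SE; adjusted p = 0.254), with 1195 ± 151 CPM in males and 1373 ± 444 CPM in females. The 3 lower genes were Acaa2, Hadha and Hadhb, thiolase and trifunctional protein genes of mitochondrial beta-oxidation, also named after their values were seen. Their log2 fold changes were -0.39, -0.41 and -0.28.

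Of 14 acyl-CoA hydrolases and related nudix enzymes, which release or cleave coenzyme A, 6 were higher and 5 lower in males, with a median of 0.05. Nudt19, a peroxisomal coenzyme A diphosphatase, averaged 849 ± 367 CPM in males and 236 ± 86.0 CPM in females, a log2 fold change of 1.86 ± 0.16 (SE; adjusted p = 5.71e-10). Acot12, a cytosolic acetyl-CoA hydrolase, had 1.13 ± 0.09 (SE; adjusted p = 1.88e-11) and Acot9, a mitochondrial thioesterase, 0.62 ± 0.06 (SE; adjusted p = 3.10e-09). Acot3, a peroxisomal thioesterase, was lower in males, with -1.91 ± 0.10 (SE; adjusted p = 3.90e-16). In the genotype comparisons and interactions none of these 4 lists had a called gene in edgeR.

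**Figure D5:**
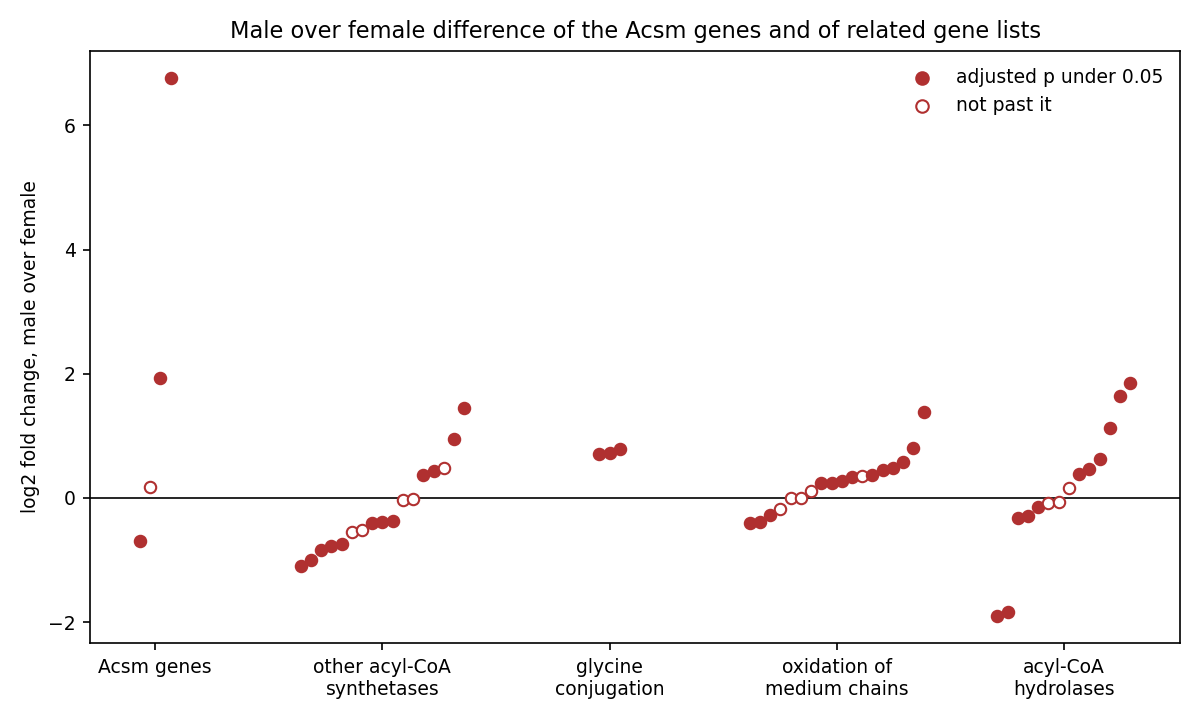
Log2 fold change of male over female, as the mean over the genotypes, for each tested gene of the Acsm family and of 4 related lists; filled points pass an adjusted p of 0.05. Acsm3 at 6.77 stands above all other points, glycine conjugation lies at 0.70 to 0.80, and the other lists run to both sides of 0.

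Markers of kidney cells were set beside these values, as means over the genotypes. Of all 17573 tested genes 40.2% were called for that mean, 3324 higher and 3748 lower in males. Of 16 proximal tubule markers 5 were higher and 5 lower in males, and their summed level was 20397 ± 596 CPM in males, from 19471 to 21877, and 19224 ± 1631 CPM in females, from 16920 to 22421, so the sexes overlapped. Of 8 markers of the S3 segment, the last stretch of the proximal tubule, 4 were higher and 3 lower, and their summed level was 8662 ± 1059 CPM in males, from 7132 to 11419, and 4167 ± 540 CPM in females, from 3713 to 5577. That sum parted the sexes as Acsm2 and Acsm3 did, and its part in their values was not tested. The 4 higher S3 genes were Slc7a13, Cyp2e1, Acy3 and Atp11a, with log2 fold changes of 7.70, 4.14, 2.13 and 1.80. The lower ones, Slc5a1, Slc22a13 and Napsa, had -0.62, -0.88 and -0.70, named after their values were seen.

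Markers of other segments were lower in males for the most part. The called counts were 6 of 7 lower and 1 higher for the thick ascending limb, and, with none higher, 3 of 4 for the distal convoluted tubule, 3 of 6 for principal cells, 6 of 6 for intercalated cells and 5 of 5 for podocytes. Summed levels of the thick ascending limb were 5441 ± 648 CPM in males, from 3447 to 6120, and 7293 ± 668 CPM in females, from 6079 to 8326. Those of intercalated cells were 302 ± 21.4 CPM in males, from 272 to 355, and 418 ± 50.4 CPM in females, from 357 to 527. Endothelial, immune and adipocyte markers had 1 of 6, 2 of 6 and 0 of 4 tested genes lower and none higher. Since 40.2% of all tested genes were called, counts near that share are not read as a result about a list. Liver also makes Acsm RNA, and of 7 tested hepatocyte markers 2 were higher and 2 lower. The summed level of the 8 listed was 241 ± 101 CPM in males, from 120.1 to 529 CPM, and 118 ± 18.6 CPM in females, from 97.8 to 171 CPM. The higher ones were Ttr, at 180 ± 94.3 CPM in males and 47.2 ± 8.87 CPM in females, and Serpina1a, at 15.96 ± 7.55 CPM in males and 5.22 ± 3.14 CPM in females. The lower ones were albumin, at 8.59 ± 2.17 CPM in males and 21.4 ± 8.90 CPM in females, and Fgb, at 1.88 ± 1.05 CPM in males and 6.66 ± 1.81 CPM in females. The part of this list in the Acsm values was not tested.

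Across the male libraries Acsm2 and Acsm3 tended to be high together, but no pair of members passed a correction over the 12 pairs tested within sexes. For Acsm2 and Acsm3 in 15 male libraries Pearson's r was 0.628 (permutation p = 0.0130, adjusted 0.0532) and Spearman's rho was 0.704 (permutation p = 0.00433, adjusted 0.0520), both two-sided. Without the 2 libraries farthest from the median r was 0.495, and without male Q replicate 4 it was 0.875. The same pair in 13 female libraries had r of 0.0574 (permutation p = 0.852, adjusted 0.974) and rho of -0.126 (permutation p = 0.682, adjusted 0.818). For Acsm3 and Acsm5 in males r was 0.631 (permutation p = 0.0115, adjusted 0.0532) and rho 0.554 (permutation p = 0.0345, adjusted 0.138), and r was 0.344 without the 2 farthest. In females that pair had r of 0.184 (permutation p = 0.544, adjusted 0.816) and rho of 0.132 (permutation p = 0.668, adjusted 0.818). For Acsm1 and Acsm5 in 13 female libraries r was 0.668 (permutation p = 0.0133, adjusted 0.0532) and rho 0.615 (permutation p = 0.0297, adjusted 0.138), and r was 0.658 without the 2 farthest. In males that pair had r of 0.0235 (permutation p = 0.935, adjusted 0.974) and rho of 0.354 (permutation p = 0.197, adjusted 0.473), and r was 0.707 without male Q replicate 4.

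Of 12569 genes compared by the smaller of their within-male and within-female correlations of log2 CPM, those most like Acsm2 were Acat1, the mitochondrial acetoacetyl-CoA thiolase, with r of 0.859 in males and 0.723 in females, Tmem183a with 0.811 and 0.709, and Mccc1 with 0.694 and 0.695. Acat1 also differed between the sexes, at 1283 CPM in males and 657 CPM in females. Most like Acsm1 were Hgd, an enzyme of tyrosine breakdown, with 0.835 in males and 0.844 in females, Aph1c with 0.787 and 0.828, and Eci3 with 0.785 and 0.772. Most like Acsm3 were Wls, with 0.815 in males and 0.792 in females, Jak2 with 0.788 and 0.816, and Kctd9 with 0.780 and 0.835. Most like Acsm5 were Slc4a9, with 0.861 in males and 0.870 in females, Atm with 0.856 and 0.862, and March6 with 0.892 and 0.834. These were picked as the highest of many over 15 male and 13 female libraries that share their depth and make-up, and they are a description only.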

How the data were processed

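Polyadenylated RNA of mouse kidneys was sequenced in 28 libraries. The values are counts per gene deposited by the authors, whole fragments over exons without scaling. Per the file headers they came from featureCounts 2.0.1 of Subread on the Ensembl release 107 annotation of GRCm39, with no strand, multi-overlap or multi-mapping option. The submitters' processing notes also name Trim Galore 0.6.7, SAMtools 1.6 and DESeq2 1.38.3, and the aligner is not given in the sources used here. Symbols, gene order and exon lengths came from GENCODE mouse release 21 on GRCm38, matched by gene ID for 52125 of 56748 genes, and no count was placed by coordinates.

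Genes were filtered with filterByExpr on the 6 groups, which left 17573 genes with 99.91% of counts, and scaled by TMM in edgeR 4.0.16 (R 4.3.3). One model of group means took in all 28 libraries and left 22 residual degrees of freedom; the robust quasi-likelihood test was read in 15 comparisons. P-values were adjusted by Benjamini-Hochberg over all tested genes, and a gene was called at an adjusted p under 0.05. The SE is the absolute log2 fold change over the square root of F, and 95% intervals rest on it. Correlations used log2 CPM with a prior count of 2 and 100000 permutations. A count of 0 was set against 3 counts. The test was also run on simulated data, built from the library sizes and dispersions of the main fit. Such data follow the model of the fit, so that run checks the code and not whether the model suits these libraries.

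The members and lists were chosen with earlier results of these data known. The text names every member, up to 4 genes of smallest p in each metabolic list, tested protein-coding genes within the cluster or among the 3 nearest on either side, and the 3 genes most like each member. It also names antisense transcripts that overlap a member. Of the S3 and hepatocyte markers the 4 genes of smallest p are named as well, though the rule was written for metabolic lists only. Other exceptions are marked. No pair of libraries within a group agreed within counting noise. Alternatives were DESeq2 (1.42.0) size factors and Wald test, no filter, a replicate block, the library code as a covariate, leaving out the 2 or 3 libraries that stand apart, and leaving out each library. Coding sequences were aligned with Biopython 1.88.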

Additional observations from a re-analysis of the deposited data

Results flagged for a closer look

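Acsm1 in the female WT library of replicate 3 was 501.1 CPM, while the other 4 libraries of its group held 320.2 to 340.9 CPM. Its gap to the nearest of them was 0.886 of the range of the group, above Dixon's critical value of 0.71 for 5 libraries. The same library held 6 of the 18 Acsm4 counts. Of 20 such sets of 5 libraries, for the 4 tested members, 1 stood out in this way, and chance alone marks about 1 in 20 groups.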

How the results depend on the processing

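Acsm1, Acsm2 and Acsm3 kept their direction and their call between the sexes in all 4 comparisons under every alternative. Leaving out 1 library at a time gave Acsm3 6.68 to 6.85, Acsm2 1.92 to 1.97 and Acsm1 -0.72 to -0.63 as means over the genotypes. Acsm5 passed the threshold in 12 of its fits between the sexes, and its value in R ran from -0.169 to 0.0156. No member was called between genotypes in any alternative, so the sign changes that follow are all of uncalled values. Without the filter the Acsm5 interaction for Q was -0.000762. With the library code as a covariate it was -0.00890, and Acsm2 in females was -0.00550 for Q over WT, -0.0105 for R over WT and 0.00499 for Q over R. Without both libraries with few mitochondrial counts, Acsm1 in males was -0.0120 for Q over WT and -0.0103 for Q over R, Acsm2 in females was -0.0376 for Q over WT and the Acsm3 interaction for Q was 0.149. Without all 3 libraries that stand apart these 4 were -0.0120, -0.0102, -0.0477 and 0.339, and Acsm3 in females was -0.00591 for Q over WT. Leaving out 1 library at a time, Acsm1 ran in males from -0.0120 to 0.136 for Q over WT, -0.0552 to 0.0258 for R over WT and -0.0101 to 0.143 for Q over R, in females from -0.0312 to 0.201 for R over WT, and from -0.206 to 0.0237 in the interaction for R. Acsm2 in females ran from -0.0383 to 0.0697 for Q over WT, -0.0628 to 0.0874 for R over WT and -0.0699 to 0.0766 for Q over R. Acsm3 ran in males from -0.0454 to 0.333 for Q over WT and -0.408 to 0.0339 for R over WT, in females from -0.0133 to 0.389 for Q over WT, and from -0.275 to 0.154 in the interaction for Q. Acsm5 ran from -0.114 to 0.118 for Q over R in males and from -0.128 to 0.104 in the interaction for Q. The cause of these changes was not tested. Over the whole table, 2474 genes were called between the sexes in R, against 4170 without both libraries with few mitochondrial counts, 4192 without all 3, 1608 without female R replicate 1 and 1613 without female R replicate 2. The labels do not state whether equal replicate numbers pair the libraries. Over 65 pairs with equal numbers the deviations from the group means had a mean correlation of -0.00327, with 5 over 0.1. Over 260 pairs with other numbers the mean was 0.00172, with 31 over 0.1. Of 28 libraries 5 were closest to their own number. These values show no sign of a pairing. With a replicate block Acsm3 in WT was 6.97, as without it, and the block called 1 gene over the whole table for Q over WT in males, against 0. Scaling by DESeq2 size factors moved the median of all genes by less than 0.1. With 3 female R libraries the values in R are the least certain. Acsm4 is limited by its 18 counts.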

Other observations

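Some genes of the related lists fell outside the rule for named genes and were chosen after their values were seen. Aacs, the acetoacetyl-CoA synthetase of the cytosol, averaged 192 CPM in males and 70.6 CPM in females, a log2 fold change of 1.45 with an adjusted p of 4.38e-08. Acot7, an acyl-CoA hydrolase best known from brain, averaged 21.8 CPM in males and 78.0 CPM in females, a log2 fold change of -1.84 with an adjusted p of 1.41e-08.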
